A study of Mus musculus with 16 samples.

Results

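The comparison described here is the response of wild-type resident peritoneal macrophages to 24 h in acidic medium. Its fold changes rest on 8 of the 16 arrays of the series, chosen by the genotype and pH in their sample names. These 8 arrays are 4 of wild-type cells at pH 6.7 (WT pH 6.7) and 4 of wild-type cells at pH 7.7 (WT pH 7.7). All cells came from mice on the C57BL/6 background, carried the wild-type allele (+/+), and were cultured in RPMI medium with 10% FCS, so that the groups differed by the pH of the medium alone as far as the labels say. The other 8 arrays hold cells of mice lacking Ogr1 (KO), 4 at pH 6.7 and 4 at pH 7.7, and serve below to ask whether a response differed with genotype. They also enter the estimate of each gene's spread, so SEs and p-values for wild type draw on all 16 arrays. The treatment text gives the pH values as 6.8 and 7.6, and those of the sample names are used here. Whether the replicates of a group were separate animals or cultures is not given in the labels, so the p-values cover only the variation among these arrays, and that may be technical.

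Resident peritoneal macrophages are long-lived phagocytes of the abdominal cavity. Inflamed, ischaemic and tumour tissue becomes acidic, and macrophages meet protons there through cell surface receptors such as Ogr1, through ion channels, and through the burden that extracellular acid places on the pH of cytosol and organelles. Macrophages also change between metabolic programmes: sterol and fatty acid synthesis is driven by the SREBP transcription factors, fatty acid oxidation and lipid storage by the PPAR nuclear receptors, and misfolded proteins or starvation for amino acids call on the unfolded protein response and the integrated stress response.

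Intensities were available for 241576 probe sets, so that a gene is usually measured at several places. A gene's level is the mean of the log2 intensities of all probe sets with its symbol, which gave 20848 genes, a typical one with 8 probe sets (median). Linear array medians ranged over 8.14 to 8.61, and the number of arrays limits the precision. WT pH 7.7 replicate 2 stood apart, since its correlation with the rest had a median of 0.883, and that of the other 15 arrays was 0.907 to 0.923. No detection call was used, and low levels are judged by the array median over its probe sets, which lay between 3.03 and 3.11 in log2. Where a group lies below it, a log2 fold change is a difference of deposited values and does not say how many times the transcript changed. In such bulk RNA, fewer cells of a type and less RNA per cell cannot be told apart. The knockout of Ogr1 could not be checked against its transcript, which is not analysed here.

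The arrays carried the markers of macrophages. Cd68 had log2 levels between 10.30 and 10.35 on the 4 pH 6.7 arrays and between 10.31 and 10.46 on the 4 pH 7.7 arrays, and Lyz2 between 10.31 and 10.45, against 10.40 to 10.68. Gata6, the transcription factor that defines large peritoneal macrophages, had 5.98, 5.60, 5.62 and 5.58 at pH 6.7, against 5.06, 5.61, 5.64 and 5.53 at pH 7.7. Of 7 macrophage markers, 1 differed, Mertk. The markers of T and NK cells were below the array median on all 8 wild-type arrays in 11 of 11 cases, those of mesothelial cells in 9 of 10, of neutrophils in 9 of 11 and of fibroblasts in 8 of 9. B cell and mast cell markers were below it on all arrays in 4 of 11 and 2 of 12 cases. The rest reached it on some or all arrays, which alone does not show that RNA of these cells was detected. Median levels were 2.68 at pH 6.7 and 2.63 at pH 7.7 for the B cell markers, and 3.07 and 2.25 for the mast cell markers. Levels of both sets on each array are given below beside the results they move with.

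A small part of the genes passed the threshold for a change with acid in wild-type cells, and more of these were higher than lower. Of 20848 genes, 455 were higher at pH 6.7 (2.18%) and 214 lower (1.03%), by limma with an adjusted p under 0.05, which makes 669 genes (3.21%). At an unadjusted p under 0.05 there were 3012. With the spread estimated from the 8 wild-type arrays alone, 239 genes passed after adjustment, 161 higher and 78 lower. The median log2 fold change was 0.58 for the genes that rose, -0.59 for those that fell and 0.001 over all genes. Changes of 2-fold or more were found in 61 genes that rose and 16 that fell. The 4 arrays of each group lay without overlap in 613 of the 669 genes, while 7.77% of all genes showed such a separation. Brighter genes passed more often: among the fifth of genes with the lowest levels 0.0959% passed, and among the fifth with the highest levels 8.35%. The counts of the gene lists below are to be read against these shares, and in 11 of the 40 lists the share that passed was 8.35% or less. The lists were chosen with earlier results of these data known, so a share above these is a description and not a test.

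The number of calls and their direction changed when single arrays were left out. WT pH 7.7 replicate 2 was the lowest array of its group in 277 of the 455 genes that rose, and WT pH 6.7 replicate 1 the highest of its group in 203. Without WT pH 7.7 replicate 2, 482 genes passed, of which 253 were higher, and 399 of them had passed in the same direction with it. Without WT pH 6.7 replicate 1 there were 408, and without replicate 3 of that group 379. Omitting 1 KO array, which leaves the wild-type fold changes as they are, gave 551 to 624 genes. Each omission also leaves fewer arrays to estimate the spread, and the part of this in the counts was not tested. Higher genes made up 68% of the calls, 60.3% after centring the arrays on their medians (395 of 655) and 55.6% after another quantile normalization (395 of 710). A total of 269 genes, 186 higher and 83 lower, passed whichever of the 8 wild-type arrays was omitted. In the text below, the number of these 8 leave-out fits that a gene passed is given where it is under 8.

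**Figure D1:**
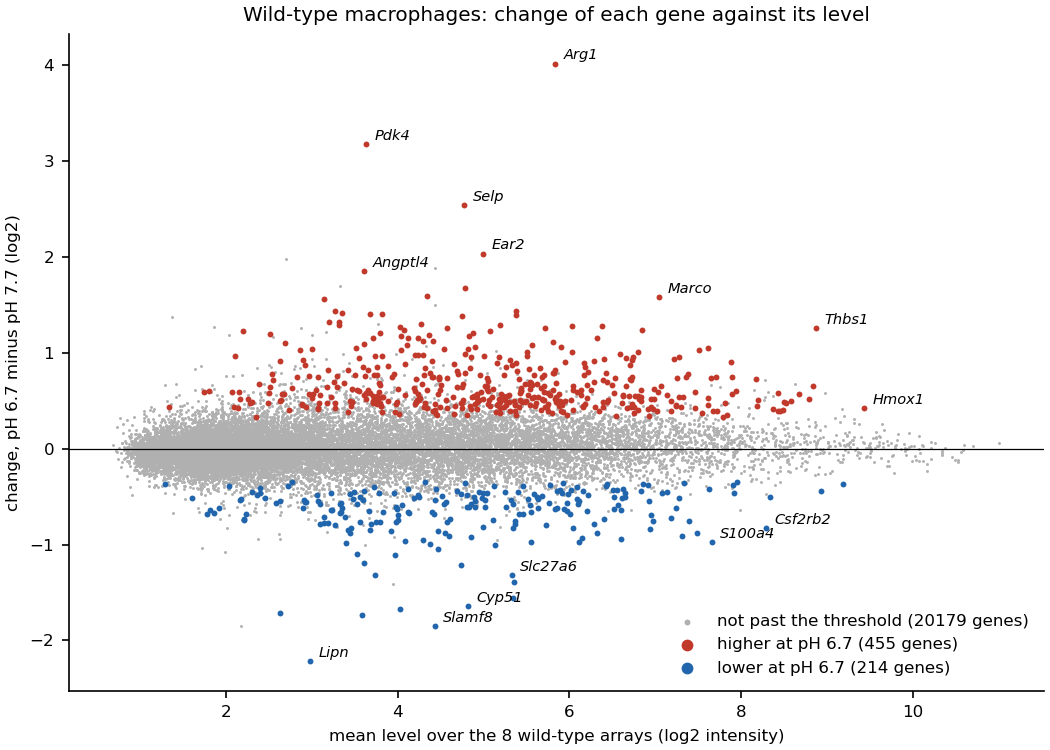
Change of each of 20848 genes in wild-type macrophages (pH 6.7 minus pH 7.7, log2) against its mean level over the 8 wild-type arrays (log2 intensity). Red points are the 455 genes higher and blue points the 214 genes lower at pH 6.7 (limma, adjusted p under 0.05), grey points the rest; Arg1 stands highest at 4.02 and Lipn lowest at -2.21.

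Arg1, the arginase that converts arginine to ornithine and urea, showed the greatest increase. Its log2 levels were 8.19, 7.86, 8.20 and 7.13 at pH 6.7, against 4.79, 3.45, 3.71 and 3.36 at pH 7.7. The lowest acid array lay above the highest alkaline array, and the log2 fold change was 4.02 ± 0.38 (SE, n = 4 arrays per group, adjusted p = 3.63e-05), or 16.2-fold. Of its 12 probe sets, 11 were higher without overlap of the arrays, and the remaining one changed by -0.07. Of the 15 genes of arginine and polyamine metabolism, 3 rose, 1 fell and 11 did not pass, with a median of 0.15. Slc7a2, the transporter that brings arginine into the cell, rose by 0.53 ± 0.11 (adjusted p = 0.0103). Oat, which turns ornithine toward proline, rose by 0.52 in 2 of the 8 fits, and Asl, the argininosuccinate lyase of arginine resynthesis, fell by 0.48 in 1. Nos2, the inducible nitric oxide synthase that competes for arginine, had log2 levels of 2.01, 2.07, 2.32 and 2.14 at pH 6.7, against 2.09, 2.26, 1.94 and 2.36 at pH 7.7, all below the array medians.

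Pdk4, the kinase that shuts pyruvate out of the mitochondrial pyruvate dehydrogenase, was next. It had 6.49, 4.82, 5.15 and 4.44 at pH 6.7, against 1.78, 2.15, 2.22 and 2.01 at pH 7.7, a log2 fold change of 3.18 ± 0.42 (adjusted p = 0.000325). WT pH 6.7 replicate 1 was the highest array, and all 4 pH 7.7 arrays were below the array medians. Selp, the adhesion receptor P-selectin, which large peritoneal macrophages express, had 6.44, 6.44, 5.98 and 5.33 at pH 6.7, against 3.75, 3.02, 3.54 and 3.71 at pH 7.7 (2.55 ± 0.26, adjusted p = 6.71e-05). All 17 of its probe sets were higher without overlap. Angptl4, a secreted inhibitor of lipoprotein lipase, had 5.62, 3.97, 4.69 and 3.89, against 2.69, 2.45, 2.74 and 2.85 (1.85 ± 0.32, adjusted p = 0.00303).

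The 20 largest increases were taken among genes with 4 or more probe sets and no overlap between the groups. Padi4, which converts protein arginine to citrulline, rose by 1.68 ± 0.23 (adjusted p = 0.000445). Slc9a9, an endosomal sodium-proton exchanger, rose by 1.59 ± 0.30 and the scavenger receptor gene Marco by 1.59 ± 0.23. Car6, a secreted carbonic anhydrase, had 6.09, 6.31, 6.07 and 5.95 at pH 6.7, against 4.47, 4.77, 4.56 and 4.85 at pH 7.7 (1.44 ± 0.14, adjusted p = 3.63e-05). Epb41l3, of the membrane skeleton, rose by 1.44, the globin family member Adgb by 1.41 and the IgG Fc receptor gene Fcgr4 by 1.39. Chst15, a chondroitin sulfotransferase, rose by 1.32, the chemokine gene Ccl22 by 1.32, and Enpp5 by 1.30, the last in only 2 of the 8 fits. Ltc4s, the synthase of leukotriene C4, rose by 1.29, the nuclear receptor gene Nr4a1 by 1.29, and Ltbp1, which stores latent TGF-beta in the matrix, by 1.28. Thbs1, the matrix protein thrombospondin 1, is the brightest of these genes, with 9.60, 9.64, 9.64 and 9.13 at pH 6.7, against 8.81, 7.83, 8.34 and 7.99 at pH 7.7 (1.26 ± 0.18, adjusted p = 0.000609). Phyhd1 and Abcd2, a peroxisomal importer of very long fatty acyl chains, completed the 20 with 1.26 each. The pH 7.7 arrays lay below the array medians in Angptl4, Epb41l3, Chst15, Ccl22 and Nr4a1 as in Pdk4.

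**Figure D2:**
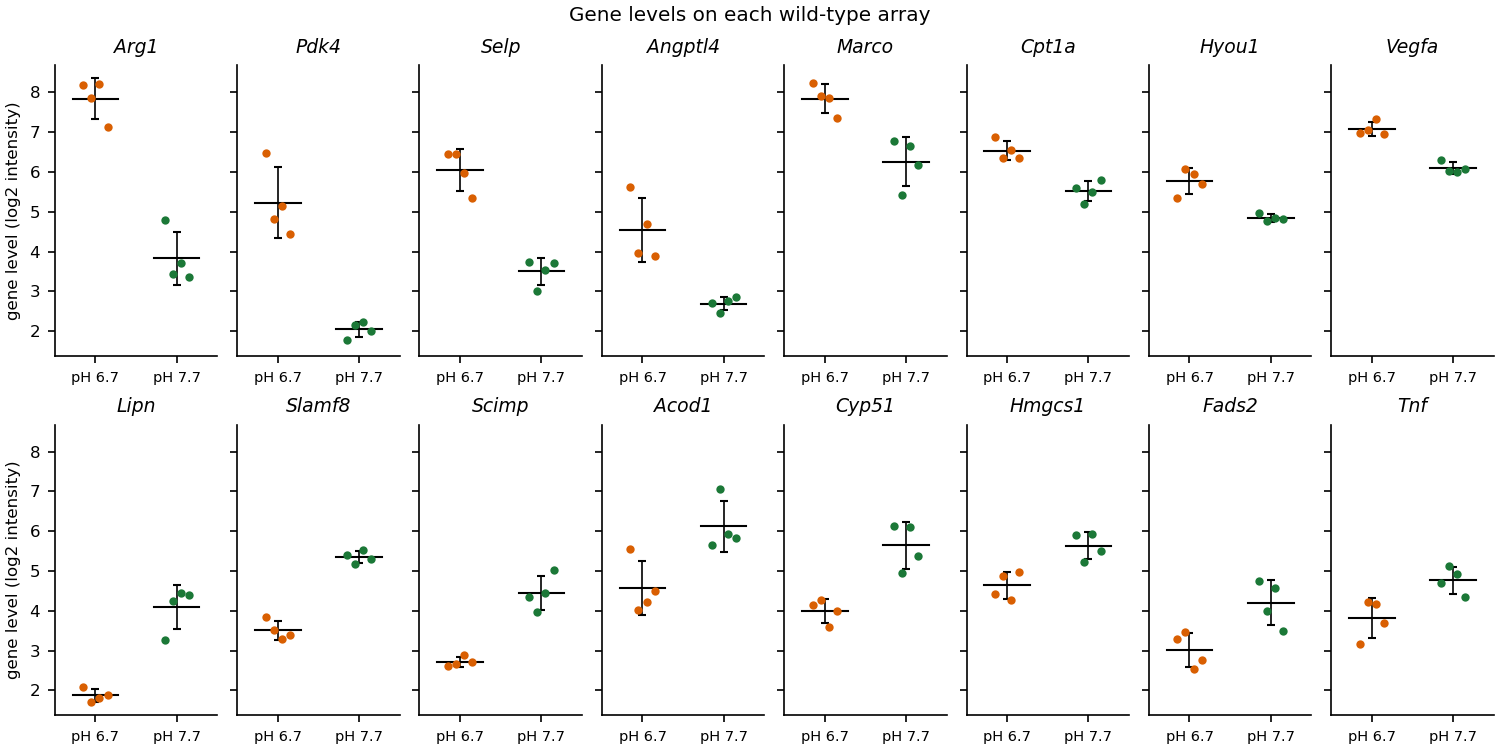
Log2 levels of 16 genes on each wild-type array, with the 4 pH 6.7 arrays left (orange) and the 4 pH 7.7 arrays right (green) in each panel. Black lines are group means and bars SDs over 4 arrays; the upper row holds genes higher at pH 6.7, such as Arg1 with a lowest acid array of 7.13 against a highest alkaline array of 4.79, and the lower row genes lower at pH 6.7.

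Lipn, a member of the acid lipase family, fell most. It had 2.08, 1.71, 1.80 and 1.89 at pH 6.7, against 3.26, 4.24, 4.44 and 4.40 at pH 7.7, and all 9 of its probe sets were lower (-2.21 ± 0.21, adjusted p = 3.63e-05). The acid arrays lay below the array medians. Slamf8, a SLAM family receptor of myeloid cells, had 3.85, 3.51, 3.30 and 3.38 at pH 6.7, against 5.40, 5.18, 5.54 and 5.30 at pH 7.7 (-1.85 ± 0.19, adjusted p = 5.75e-05). Scimp, a transmembrane adaptor of Toll-like receptor signalling, had 2.61, 2.65, 2.89 and 2.72, against 4.35, 3.98, 4.44 and 5.03 (-1.73 ± 0.19, adjusted p = 8.54e-05). The groups did not overlap in either gene, and the acid arrays of Scimp lay below the array medians. Acod1, the mitochondrial enzyme that makes itaconate in activated macrophages, had 5.55, 4.01, 4.22 and 4.50 at pH 6.7, against 5.65, 7.07, 5.93 and 5.83 at pH 7.7 (-1.55 ± 0.32, adjusted p = 0.0115). Its highest acid array, replicate 1, lay just under the lowest alkaline array.

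Mamdc2 fell by 1.39, Clec5a, a C-type lectin receptor that signals through DAP12, by 1.32, and Slc27a6, of the fatty acid transport proteins, by 1.31. Hey1, a transcriptional repressor known as a Notch target, fell by 1.11 and the metalloproteinase gene Mmp27 by 1.05. Qpct, the glutaminyl cyclase that caps chemokines with pyroglutamate, fell by 1.0 and Pomk, a kinase of dystroglycan glycosylation, by 0.97. Klrb1a, an NK receptor family member, fell by 0.98 but passed in 2 of the 8 fits. The other 8 of the 20 largest decreases, Idi1, Cyp51, Sqle, Lss, Hmgcs1, Fdft1, Hsd17b7 and Fads2, are enzymes of sterol synthesis and of fatty acid desaturation. Among genes with 1 to 3 probe sets, Ear2, an eosinophil-associated ribonuclease also made by alternatively activated macrophages, rose by 2.04 on its 1 probe set, Egr1 by 1.24 and Ferd3l by 1.23, of which the last had 1 probe set higher and 1 lower. Ferd3l had 1.92 on WT pH 6.7 replicate 3 and 1.13 on WT pH 7.7 replicate 4, both below the array medians. S100a4, a calcium-binding protein of motile cells, had 7.25, 7.21, 7.01 and 7.23 at pH 6.7, against 8.13, 8.01, 8.36 and 8.09 at pH 7.7 (-0.97 ± 0.13, adjusted p = 0.00032). Tmem119 (-0.88) and Lrrc32 (-0.75) passed in 2 and 3 of the 8 fits.

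The further genes listed here, among the brightest that changed, moved by 0.35 to 0.83 in log2. Hmox1, the haem oxygenase, rose by 0.42 in 2 of the 8 fits, the membrane rupture protein gene Ninj1 by 0.66 and Mif, the macrophage migration inhibitory factor, by 0.57. Ninj1 had 9.34, 9.01, 9.16 and 9.16 at pH 6.7, against 8.68, 8.33, 8.42 and 8.61 at pH 7.7, and like Mif it passed in each of the 8 fits. Ucp2, Ifnar2, Rilpl2, Smpdl3a, App and Epas1 rose by 0.40 to 0.58 and passed in 2 to 7 of them. Among the brightest decreases, Csf2rb2, a beta chain of the interleukin-3 receptor in mice, had 8.26, 7.51, 7.69 and 8.04 at pH 6.7, against 8.57, 8.70, 8.83 and 8.70 at pH 7.7 (-0.83 ± 0.14, adjusted p = 0.00221). Max, the partner of Myc, fell by 0.50. Anxa1, Ifi207, Entpd1, Hipk2, Esyt1 and the mitochondrial ND4L fell by 0.35 to 0.46 and passed in 1 or 2 of the 8 fits.

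The enzymes of cholesterol synthesis were the group with the lowest medians. Of 7 enzymes of the mevalonate branch 4 fell, 0 rose and 3 did not pass, with a median of -0.76, and of 11 enzymes from squalene to cholesterol 6 fell, 0 rose and 5 did not pass, with a median of -0.93, against 0.001 over all genes. Hmgcs1, which makes the precursor of mevalonate, had 4.42, 4.88, 4.27 and 4.98 at pH 6.7, against 5.90, 5.22, 5.93 and 5.51 at pH 7.7 (-1.0 ± 0.17, adjusted p = 0.00221). Mvk, the mevalonate kinase, had 3.17, 3.17, 3.19 and 3.17, against 3.91, 3.79, 4.15 and 3.91 (-0.76 ± 0.10, adjusted p = 0.000283). Idi1, the isomerase of isopentenyl diphosphate, had 3.15, 3.74, 2.53 and 3.37, against 5.08, 4.22, 5.76 and 4.41 (-1.67 ± 0.30, adjusted p = 0.00469). The groups did not overlap in these genes, and the alkaline arrays of replicates 1 and 3 were the highest for Hmgcs1 and Idi1. Fdps, which builds farnesyl diphosphate, fell by 0.92.

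After the branch point, Fdft1, the squalene synthase, fell by 0.98, Sqle, the squalene epoxidase, by 1.21, and Lss, which closes the sterol ring, by 1.10. Cyp51, the lanosterol demethylase, had 4.15, 4.28, 3.58 and 3.98 at pH 6.7, against 6.13, 4.95, 6.12 and 5.38 at pH 7.7 (-1.64 ± 0.26, adjusted p = 0.00165). Msmo1, which removes the next methyl groups, fell by 0.93 and Hsd17b7, a ketoreductase of the same complex, by 0.97, Hsd17b7 in 4 of the 8 fits. Of 10 genes of SREBP control and LDL uptake, 1 fell, Stard4, a carrier of cholesterol between membranes (-0.79, in 2 of the 8 fits). Srebf2, the regulator of these enzymes, had 5.64, 5.67, 5.51 and 5.95 at pH 6.7, against 6.21, 5.90, 6.40 and 5.94 at pH 7.7 (-0.42 ± 0.13, adjusted p = 0.103). Every fit without 1 wild-type array left 4 mevalonate genes and 5 to 7 of the later enzymes lower and 0 higher. With the 8 wild-type arrays alone 4 and 5 were lower, and on the brightest probe set 2 and 4. Without WT pH 7.7 replicate 2 the medians of the lists were -0.82 and -1.07.

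The promoters of these enzymes share CCAAT boxes, which bind the factor NF-Y that acts beside SREBP. In the RefSeq table of promoters (GRCm38.p6, 250 bases before to 50 after the start of a gene), 15 of the 18 members of the 2 lists had an entry, and 15 of 15 held CCAAT on either strand, against 41.9% of 15859 genes with a promoter, 39.2% of the genes that rose and 49.4% of those that fell. The sterol regulatory element in the form TCACNCCAC was in 1 of 15, Hmgcs1, against 1.42% of all. A match is a description of letters and no site was measured. The 150 bases before the start of 6 of these genes that fell are shown because their promoters carry the box; capitals mark CCAAT or its reverse complement ATTGG and, in Hmgcs1, also the sterol element.
Hmgcs1 (chr13:119690201-119690350, plus strand): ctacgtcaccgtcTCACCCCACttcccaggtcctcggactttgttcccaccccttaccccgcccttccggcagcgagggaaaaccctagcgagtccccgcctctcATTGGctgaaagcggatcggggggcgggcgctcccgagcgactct
Idi1 (chr13:8885456-8885605, plus strand): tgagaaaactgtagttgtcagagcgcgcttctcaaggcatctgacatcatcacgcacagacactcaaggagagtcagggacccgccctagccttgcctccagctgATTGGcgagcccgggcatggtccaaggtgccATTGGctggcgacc
Mvk (chr5:114444119-114444268, plus strand): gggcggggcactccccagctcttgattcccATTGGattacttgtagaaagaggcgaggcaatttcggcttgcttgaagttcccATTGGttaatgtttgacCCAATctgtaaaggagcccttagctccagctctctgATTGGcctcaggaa
Cyp51 (chr5:4104698-4104847, minus strand): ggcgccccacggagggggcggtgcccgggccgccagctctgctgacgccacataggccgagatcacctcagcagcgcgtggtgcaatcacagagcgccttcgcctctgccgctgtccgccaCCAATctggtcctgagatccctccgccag
Lss (chr10:76531455-76531604, plus strand): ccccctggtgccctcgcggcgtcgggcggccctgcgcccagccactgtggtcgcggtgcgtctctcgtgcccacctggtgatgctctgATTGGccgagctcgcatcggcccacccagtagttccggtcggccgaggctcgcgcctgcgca
Hsd17b7 (chr1:169969206-169969355, minus strand): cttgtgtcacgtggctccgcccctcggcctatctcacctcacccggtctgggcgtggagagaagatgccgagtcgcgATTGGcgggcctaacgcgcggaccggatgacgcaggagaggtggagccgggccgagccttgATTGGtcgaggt

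Of 15 genes of fatty acid synthesis and desaturation 6 fell, 0 rose and 9 did not pass, with a median of -0.36. Fads2, the first desaturase of polyunsaturated fatty acids, had 3.29, 3.46, 2.54 and 2.75 at pH 6.7, against 4.76, 3.98, 4.56 and 3.50 at pH 7.7 (-1.19 ± 0.24, adjusted p = 0.00896). Fasn, the fatty acid synthase, fell by 0.67 in 6 of the 8 fits, and the elongase gene Elovl1 by 0.51 and Fads1, the next desaturase, by 0.53, in 3 each. Scd2, a stearoyl-CoA desaturase, fell by 0.84 in 3 of the 8 fits. The count fell when some single arrays were left out. Without WT pH 6.7 replicate 3 only 1 of the 15 passed, and 2 passed without WT pH 6.7 replicate 2 or WT pH 7.7 replicate 3. With the 8 wild-type arrays alone 0 of the 15 passed, and on the brightest probe set 1.

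Of 20 genes of fatty acid oxidation 8 rose, 0 fell and 12 did not pass; 19 had a positive change, and the median was 0.31. Cpt1a, which admits long-chain fatty acids to mitochondria, had 6.88, 6.36, 6.54 and 6.36 at pH 6.7, against 5.59, 5.19, 5.50 and 5.81 at pH 7.7 (1.01 ± 0.14, adjusted p = 0.000612). Acadl, the long-chain acyl-CoA dehydrogenase, had 7.39, 7.22, 7.54 and 7.07, against 6.31, 6.01, 6.34 and 6.51 (1.01 ± 0.12, adjusted p = 0.00023). Eci2, an enoyl-CoA isomerase, rose by 1.0 and Hadhb, of the trifunctional protein, by 0.79. The groups did not overlap in these 4 genes. Each fit without 1 wild-type array left 6 to 8 of the 20 higher, while on the brightest probe set 2 passed. With the 8 wild-type arrays alone 6 passed.

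Of 20 genes of lipid droplets and PPAR targets, 4 rose, 0 fell and 16 did not pass, with a median of 0.004 over the list. Beside Pdk4 and Angptl4 these were Plin2 and Hilpda, 2 proteins of the lipid droplet surface. Plin2 had 8.03, 7.62, 7.78 and 7.60 at pH 6.7, against 7.03, 6.56, 6.69 and 6.92 at pH 7.7 (0.95 ± 0.13, adjusted p = 0.000409), and Hilpda rose by 0.96 in 1 of the 8 fits. Pparg, the nuclear receptor itself, had 3.42, 4.42, 4.35 and 4.04, against 5.02, 3.51, 4.64 and 4.36 (adjusted p = 0.677). The PPAR element, AGGTCA repeated with 1 base between, was in 0 of the 32 promoters of this list and the oxidation list together and in 0.0504% of all promoters. Among 14 LXR targets and efflux genes, 2 rose, the cholesterol exporter gene Abca1 (0.56, in 3 of the 8 fits) and Smpdl3a (0.40, in 2), and 1 fell, Scd2. With the 8 wild-type arrays alone 0 of the 14 passed. Abcg1, the other exporter, had 7.27, 6.87, 7.0 and 7.04 at pH 6.7, against 6.86, 7.06, 7.15 and 7.08 at pH 7.7.

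Of 21 chaperones and folding enzymes in the endoplasmic reticulum, all had a positive change, with a median of 0.38; 6 rose, 0 fell and 15 did not pass, and 15 had an unadjusted p under 0.05. Hyou1, a chaperone of the Hsp70 family, had 5.34, 6.08, 5.95 and 5.70 at pH 6.7, against 4.98, 4.76, 4.83 and 4.81 at pH 7.7 (0.92 ± 0.13, adjusted p = 0.000518). Ero1a, which oxidises disulfide isomerases, rose by 0.45 in 7 of the 8 fits, Edem1, of the degradation of misfolded glycoproteins, by 0.43 in 5, and the disulfide isomerase gene P4hb by 0.37 in 5. Hspa5, the master chaperone BiP, had 7.95, 7.98, 8.02 and 8.02, against 7.82, 7.04, 7.57 and 7.71 (0.46 ± 0.14, adjusted p = 0.0918). WT pH 7.7 replicate 2 was the lowest array for Hspa5. The count fell when some single arrays were left out. Without WT pH 6.7 replicate 2, 1 passed, and 2 passed without WT pH 6.7 replicate 3 or WT pH 7.7 replicate 2. The medians in these 3 fits were 0.34, 0.33 and 0.29. With the 8 wild-type arrays alone 1 of the 21 passed, and on the brightest probe set 1.

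The element of the unfolded protein response, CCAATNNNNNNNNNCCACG, which contains a CCAAT box, was searched on both strands and was in 8 of the 19 chaperone promoters in the table, against 0.151% of all promoters and 0.56% of those of genes that rose. Of the 5 that rose and had a promoter, 1 held it, Dnajc3, named here after its value was seen (0.45, adjusted p = 0.0447, in 3 of the 8 fits). Its promoter and that of Hspa5 are shown as the clearest examples of the element, which stands in capitals.
Hspa5 (chr2:34771940-34772089, plus strand): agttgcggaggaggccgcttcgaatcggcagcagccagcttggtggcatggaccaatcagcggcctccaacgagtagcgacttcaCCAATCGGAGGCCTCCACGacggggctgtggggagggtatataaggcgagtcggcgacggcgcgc
Dnajc3 (chr14:118937782-118937931, plus strand): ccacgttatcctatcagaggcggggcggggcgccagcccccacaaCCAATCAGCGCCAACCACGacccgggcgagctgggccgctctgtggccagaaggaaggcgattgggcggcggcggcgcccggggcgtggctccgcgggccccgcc

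Of 26 genes of the integrated stress response, 5 rose, 0 fell and 21 did not pass, with a median of 0.23 and 22 positive changes. Nupr1, a stress-induced chromatin protein, had 7.15, 6.95, 6.69 and 6.80 at pH 6.7, against 5.43, 5.51, 6.02 and 5.99 at pH 7.7 (1.16 ± 0.17, adjusted p = 0.000666). Ddit3, which encodes the factor CHOP, rose by 0.79, the related factor gene Atf5 by 0.74 and Sesn2, a leucine sensor that restrains mTORC1, by 0.75. Each of these 4 passed in all 8 fits. Atf4, the factor that drives these genes and is regulated largely at translation, had a change of -0.01 (named after its value was seen). The CHOP-ATF element TGATGNAA was in 9 of 23 promoters of this list, against 3.61% of all and 3.08% of those of genes that rose. Of the 4 members that passed and had a promoter, 1 held it. Sesn2 also stood in the list of p53 targets, of which 3 of 16 rose, with Gdf15, a stress cytokine of the TGF-beta family (1.16 ± 0.19, adjusted p = 0.00181), and Phlda3 (0.83). Cdkn1a, the cell cycle inhibitor p21, had 7.05, 7.56, 7.39 and 7.48, against 7.07, 6.99, 7.39 and 7.27 (adjusted p = 0.529). Of 19 NRF2 targets 3 rose, the glutathione reductase gene Gsr (0.59 ± 0.09, adjusted p = 0.000825), Osgin1 (0.62, in 7 of the 8 fits) and Hmox1, while Nqo1 had 3.37, 3.67, 3.32 and 4.24, against 3.70, 4.80, 3.87 and 4.68 (-0.61, adjusted p = 0.36).

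Genes known to respond to low oxygen rose in 6 of 21 cases and fell in 0, with a median of 0.08. Vegfa, the growth factor of blood vessels, had 6.98, 7.06, 7.34 and 6.95 at pH 6.7, against 6.31, 6.02, 5.99 and 6.07 at pH 7.7 (0.99 ± 0.12, adjusted p = 0.000287). P4ha1, a collagen prolyl hydroxylase, rose by 0.71 and the mitophagy receptor gene Bnip3 by 0.64, the last in 7 of the 8 fits. Ero1a, Hilpda and Epas1, which encodes HIF-2 alpha, were the other members that rose. Without WT pH 6.7 replicate 1 or 2 the count was 3. The hypoxia response element TACGTG was in 5 of 18 promoters, against 3.78% of all and 5.04% of those of genes that rose. Of the 5 members that rose and had a promoter, 1 held it. Of 19 genes of glucose uptake and glycolysis 1 rose, Pfkl, the liver type of phosphofructokinase (0.67 ± 0.15, adjusted p = 0.0161), in 6 of the 8 fits. Ldha, the lactate dehydrogenase, had 7.47, 7.69, 7.60 and 7.66, against 7.40, 7.09, 7.38 and 7.35 (0.30 ± 0.10, adjusted p = 0.148). The lactate exporter gene Slc16a3 had a change of 0.12.

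**Figure D3:**
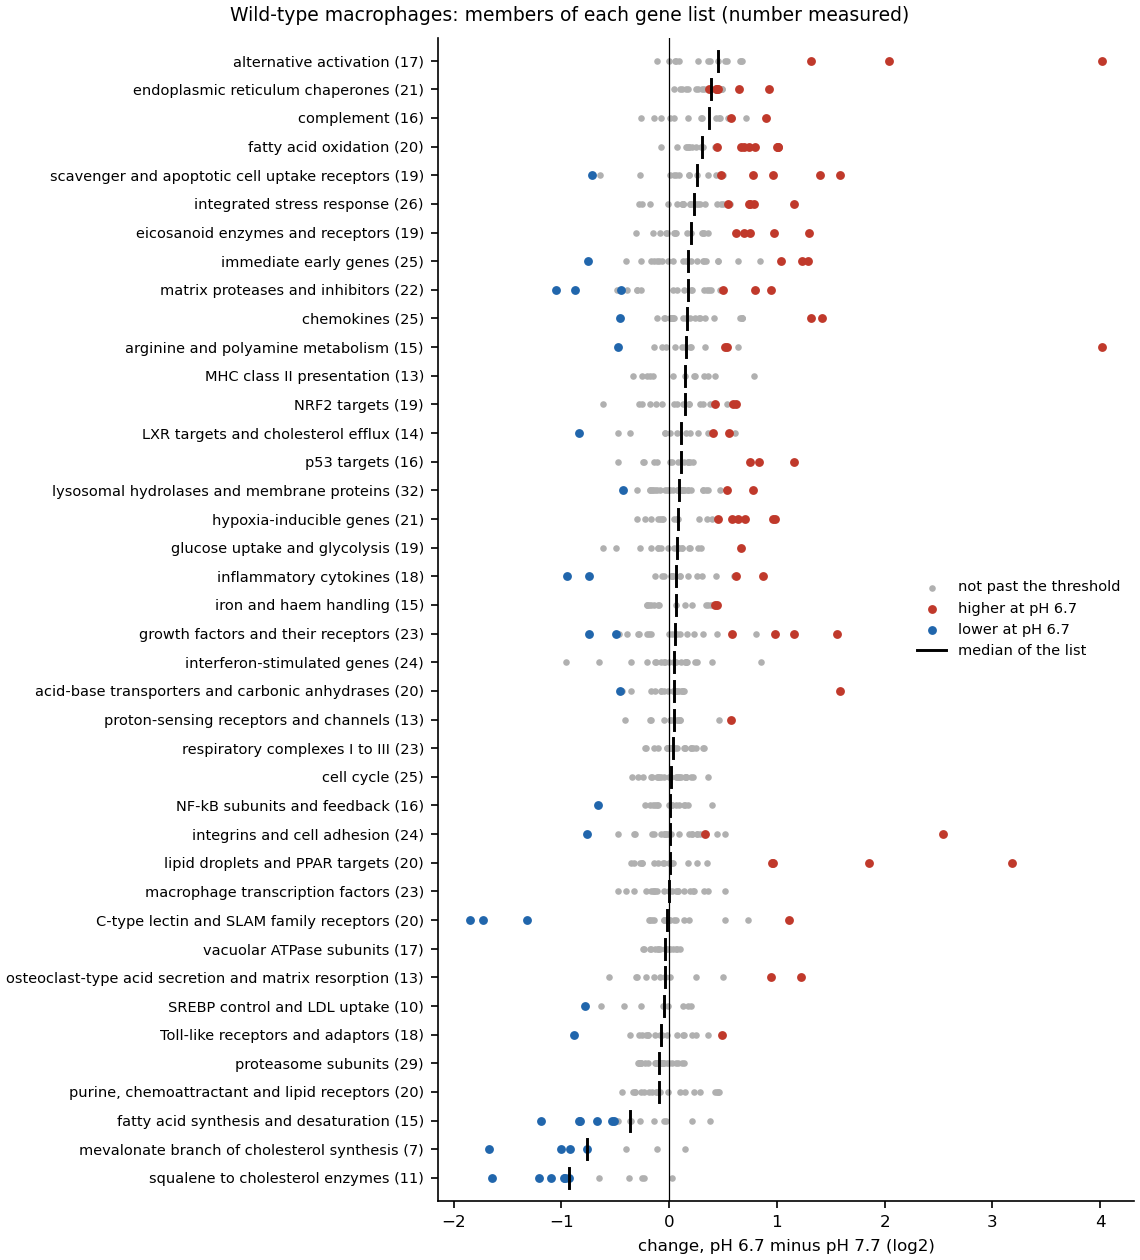
Change of each measured member of 40 gene lists in wild-type macrophages (pH 6.7 minus pH 7.7, log2), 1 row per list with the number measured, ordered by median. Red points rose and blue points fell (limma, adjusted p under 0.05), grey points did not pass, and black ticks are medians, from -0.93 for squalene to cholesterol enzymes to 0.45 for alternative activation.

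Genes of alternative activation rose in 3 of 17 cases and fell in 0; 16 changes were positive and the median was 0.45. The 3 were Arg1, Ear2 and Ccl22, a ligand of the receptor CCR4. Ccl22 had 4.41, 4.19, 3.35 and 3.48 at pH 6.7, against 2.71, 2.52, 2.91 and 2.0 at pH 7.7 (1.32 ± 0.25, adjusted p = 0.00715). The mannose receptor gene Mrc1 had 4.56, 6.10, 5.91 and 5.69, against 5.60, 4.16, 5.23 and 5.21 (adjusted p = 0.595), and Retnla, which encodes RELM alpha, had 3.18, 3.85, 2.75 and 2.50, against 2.59, 2.31, 2.47 and 2.77 (adjusted p = 0.54). The groups overlapped in both.

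Inflammatory genes moved in both directions and in few members. Of 18 cytokines, 2 rose and 2 fell. Osm, the cytokine oncostatin M, had 3.52, 3.38, 3.52 and 3.0 at pH 6.7, against 2.69, 2.51, 2.26 and 2.48 at pH 7.7 (0.87 ± 0.15, adjusted p = 0.00318). Il1a, an alarmin of the interleukin-1 family, had 7.32, 7.18, 7.07 and 7.0, against 6.47, 6.49, 6.65 and 6.50 (0.62 ± 0.11, adjusted p = 0.00374). Tnf was lower, with 3.17, 4.23, 4.18 and 3.69, against 4.69, 5.12, 4.93 and 4.34 (-0.95 ± 0.22, adjusted p = 0.0212), in 4 of the 8 fits. Csf1, the growth factor of macrophages, fell by 0.74 in 3 of the 8 fits. Il1b had 3.49, 1.97, 2.36 and 1.99, against 2.01, 2.25, 2.45 and 2.08, so that only WT pH 6.7 replicate 1 stood above the rest.

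Of 25 chemokines 2 rose, Ccl22 and Ppbp, a chemokine precursor of platelets (1.42, in 3 of the 8 fits), and 1 fell, Cxcl16 (-0.46, in 2 of the 8 fits). Ccl2 and Cxcl2 had changes of 0.28 and 0.03. Of 16 NF-kB subunits and feedback genes 1 fell, the inhibitor gene Nfkbie (-0.66, in 6 of the 8 fits), and Nfkbia had 6.08, 5.39, 5.27 and 5.27, against 5.38, 5.47, 5.41 and 5.61. Among 18 Toll-like receptors and adaptors Tlr2, the receptor of bacterial lipopeptides, had 6.46, 5.73, 5.46 and 5.88 at pH 6.7, against 6.41, 7.20, 6.81 and 6.66 at pH 7.7 (-0.88 ± 0.18, adjusted p = 0.0115), with an overlap through replicate 1 of each group. The kinase gene Irak2 rose by 0.49 in 7 of the 8 fits. Tlr4 and Cd14, which bind lipopolysaccharide, had changes of -0.14 and -0.21. Of 20 genes in the list of C-type lectin and SLAM family receptors, 3 fell, Slamf8, Scimp and Clec5a, and 1 rose, Cd209a (1.11, in 2 of the 8 fits). Scimp, a transmembrane adaptor, stood in this list but is of neither family.

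No gene passed in 8 of the 40 lists by limma, which together held 174 measured genes, of which 25 had an unadjusted p under 0.05 (14.4%), the same share as over all genes (14.4%). These were interferon-stimulated genes (3 of 24 at an unadjusted p under 0.05), class II antigen presentation (3 of 13), subunits of the vacuolar proton pump (0 of 17), macrophage transcription factors (4 of 23), receptors for purines, chemoattractants and lipids (5 of 20), cell cycle genes (2 of 25), respiratory complexes I to III (3 of 23) and proteasome subunits (5 of 29). Irf7, a regulator of interferon genes, had 6.00, 3.94, 3.80 and 5.60 at pH 6.7, against 3.94, 3.56, 4.08 and 4.37 at pH 7.7 (0.85 ± 0.37, adjusted p = 0.28), with replicates 1 and 4 of the acid group high. Leaving out 1 wild-type array brought 1 or 2 genes past the threshold in 5 of these lists. Of the proteasome subunits, 6 of 29 had a positive change, and the median was -0.09.

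Proton sensors and pH regulators were for the most part within the spread of the arrays. Of 13 proton-sensing receptors and channels 1 rose, Trpv4, a cation channel opened by several stimuli (0.57 ± 0.13, adjusted p = 0.0235), in 3 of the 8 fits. Gpr65, a proton-sensing receptor of leukocytes, had 7.36, 7.19, 7.10 and 7.01 at pH 6.7, against 7.36, 6.63, 7.15 and 7.22 at pH 7.7. Gpr132 had 4.15, 3.72, 3.61 and 4.16, against 3.05, 3.62, 3.45 and 3.67 (0.46 ± 0.17, adjusted p = 0.19). Of 20 acid-base transporters and carbonic anhydrases, Slc9a9 rose and Slc4a2, a chloride-bicarbonate exchanger, fell (-0.45 ± 0.10, adjusted p = 0.0168, in 7 of the 8 fits). Slc9a9 had 5.69, 5.06, 5.21 and 4.60 at pH 6.7, against 4.41, 2.88, 3.28 and 3.63 at pH 7.7. Car6 was not in this list; Car2, the cytosolic carbonic anhydrase, had 2.24, 1.91, 1.80 and 1.84, against 1.97, 2.27, 2.08 and 1.68, below the array medians.

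Lysosomal genes gave 2 of 32 that rose and 1 that fell, a share of 9.38% beside the 8.35% among the genes with the highest levels. The median change of the list was 0.09, and 0.02 without WT pH 7.7 replicate 2. Its median level, taken over the genes of each group separately, was 8.23 at pH 6.7, against 7.98 at pH 7.7. Scarb2, the membrane protein that carries glucocerebrosidase to lysosomes, had 8.13, 7.63, 7.73 and 7.61 at pH 6.7, against 7.10, 6.97, 7.02 and 6.91 at pH 7.7 (0.78 ± 0.11, adjusted p = 0.000609). The sialidase gene Neu1 rose by 0.54 and the glucuronidase gene Gusb fell by 0.43, in 3 and 2 of the 8 fits. Ctsd and Lamp1 had changes of 0.01 and 0.11, and Atp6v0d2 of the proton pump one of -0.04. The element TCACGTGA of lysosomal genes was in 4 of 28 promoters, against 1.55% of all and 0% of those of genes that rose. Of the 3 members that passed and had a promoter, 0 held it. Of 13 genes of osteoclast-type resorption 2 rose, Mmp9, a gelatinase (0.95), and Acp5, the tartrate-resistant acid phosphatase (1.23), each in 3 of the 8 fits, while Ctsk had a change of -0.30 (adjusted p = 0.362). Matrix proteases gave 3 that rose and 3 that fell of 22. Mmp19 rose by 0.79, Mmp8, the neutrophil collagenase, fell by 0.88, and Adam17, which sheds TNF from the cell surface, fell by 0.45 with all 23 probe sets lower (adjusted p = 0.0054).

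Uptake receptors gave 5 of 19 that rose and 1 that fell, with a median of 0.26. Marco had 8.24, 7.92, 7.85 and 7.36 at pH 6.7, against 6.77, 5.42, 6.65 and 6.19 at pH 7.7 (adjusted p = 0.000884). Mertk, a receptor for apoptotic cells, rose by 0.48 in 3 of the 8 fits, and the scavenger receptor gene Colec12 fell by 0.72 (± 0.12, adjusted p = 0.00261). Of 16 complement genes 2 rose, C4b (0.57) and Cfp, which encodes properdin (0.90), in 3 and 2 of the 8 fits. C1qa had 9.68, 9.15, 9.27 and 8.96, against 9.42, 7.69, 8.92 and 8.69, with WT pH 7.7 replicate 2 far below the rest. Without that array 2 uptake receptors rose, as without WT pH 6.7 replicate 3 or 4. No complement gene passed without it, nor without WT pH 6.7 replicate 1 or 2 or WT pH 7.7 replicate 4. With the 8 wild-type arrays alone 0 complement genes passed, and 2 uptake receptors rose.

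Eicosanoid genes gave 5 of 19 that rose and 0 that fell, with a median of 0.21. Ltc4s had 6.42, 5.40, 5.39 and 6.13 at pH 6.7, against 4.14, 4.46, 4.89 and 4.67 at pH 7.7 (adjusted p = 0.00303), and Ptges, the inducible synthase of prostaglandin E2, 5.51, 4.59, 4.34 and 4.46, against 3.64, 3.79, 3.85 and 3.71 (0.98 ± 0.21, adjusted p = 0.0145). Alox5, the first enzyme of the leukotriene pathway, rose by 0.62 in 5 of the 8 fits and the thromboxane synthase gene Tbxas1 by 0.70 in 3. The cyclooxygenase gene Ptgs1 had 6.47, 5.90, 6.18 and 6.10, against 6.05, 5.42, 6.05 and 5.67 (0.36 ± 0.18, adjusted p = 0.386). Without WT pH 6.7 replicate 1 or 3, or WT pH 7.7 replicate 2, 2 of the 19 passed, and with the 8 wild-type arrays alone 1. Ltc4s was highest on acid replicates 1 and 4, where the mean of 12 mast cell markers was also highest, with 4.01, 2.17, 2.66 and 2.90 at pH 6.7, against 2.31, 1.99, 2.22 and 2.53 at pH 7.7; their part in the result was not tested.

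Among early response genes, Egr1 had 4.59, 4.75, 5.13 and 4.28 at pH 6.7, against 3.57, 3.20, 3.44 and 3.60 at pH 7.7 (1.24 ± 0.16, adjusted p = 0.000322), and Nr4a1 3.62, 4.23, 4.28 and 3.72, against 2.92, 2.83, 2.71 and 2.23 (1.29 ± 0.17, adjusted p = 0.00032). Dusp6, a phosphatase of ERK, rose by 1.04 in 3 of the 8 fits. Jun moved the other way, with 6.00, 6.65, 6.84 and 6.88, against 7.33, 7.20, 7.44 and 7.41 (-0.76 ± 0.16, adjusted p = 0.0157), and Fos had a change of 0.26. In all, 3 of 25 rose and 1 fell. Of 23 growth factors and receptors, 4 rose and 2 fell. Bmp2, a ligand of the TGF-beta family, had 5.25, 3.81, 3.55 and 3.07, against 3.13, 1.86, 2.38 and 2.07 (1.56 ± 0.37, adjusted p = 0.0266, in 3 of the 8 fits), with an overlap of the groups, and Nrp2, a coreceptor of VEGF and semaphorins, fell by 0.49. Of 24 adhesion genes Selp and the beta 1 integrin gene Itgb1 rose, Itgb1 (0.33) in 0 of the 8 fits, and Itgal, the alpha chain of LFA-1, fell by 0.77 (± 0.10, adjusted p = 0.000445). Of 15 genes of iron and haem, Hmox1 and Slc11a1, the phagosomal metal exporter NRAMP1 (0.45 ± 0.08, adjusted p = 0.00564), rose.

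In 370 of the 669 genes that passed, every probe set had the sign of the gene. These genes were chosen by the mean of the same probe sets, and the share over all genes was not counted. The 669 include 55 genes with 1 to 3 probe sets. With the brightest probe set alone 175 genes passed, 131 of them also among the 669 in the same direction. The 18 probe sets of Marco had changes from 0.27 to 2.56 with a median of 1.65, and the lowest was that of the brightest, which had 10.02 at pH 6.7, against 9.74 at pH 7.7. Lss had the reverse: its brightest probe set changed by -2.28, the largest fall of its 22, whose median was -1.10. The brightest of the 32 probe sets of Itgal changed by -0.12, while their median was -0.89.

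**Figure D4:**
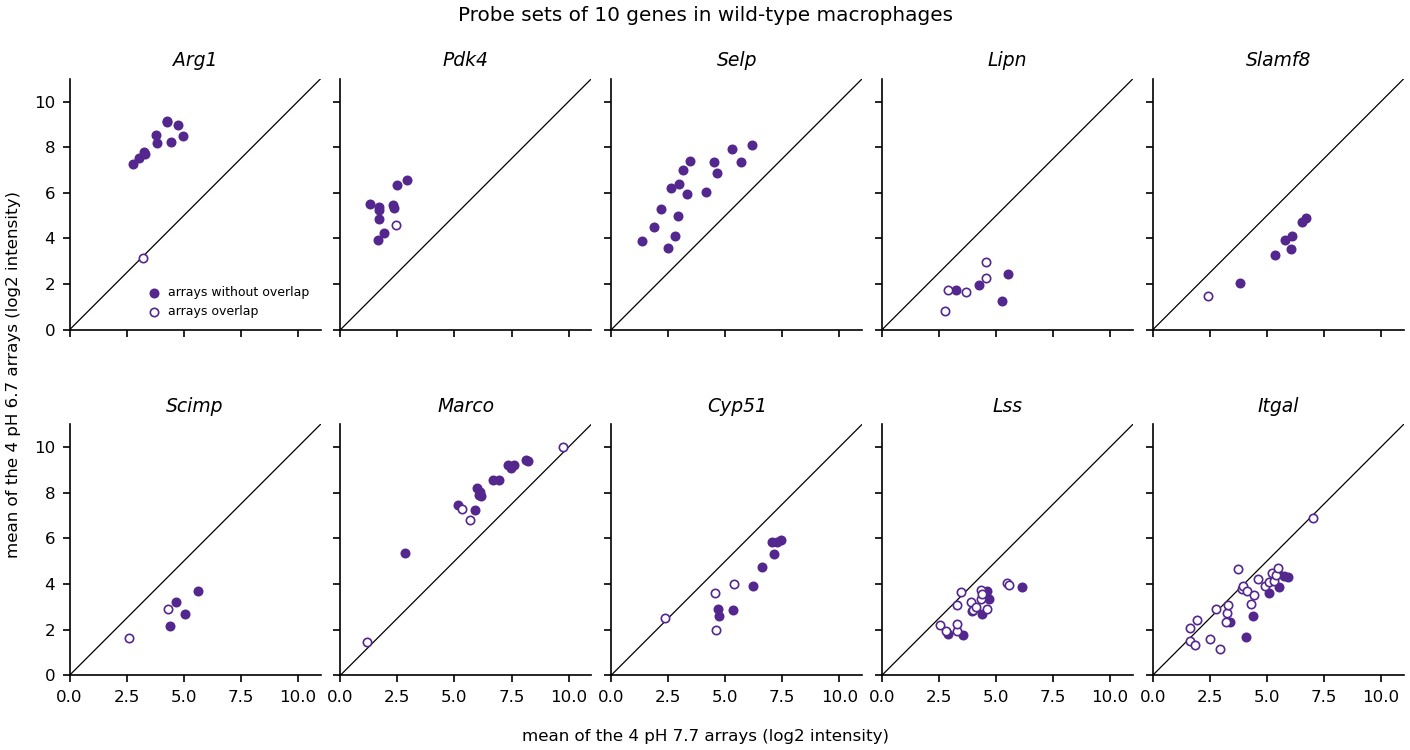
Mean log2 intensity of each probe set of 10 genes over the 4 WT pH 6.7 arrays (vertical axis) against the 4 WT pH 7.7 arrays (horizontal axis); on the diagonal the groups are equal. Filled points have no overlap between the groups' arrays, as in 11 of 12 probe sets of Arg1 and 17 of 17 of Selp, and open points overlap; in Marco the brightest probe set lies near the diagonal, with a change of 0.27.

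Markers of other cells moved with the acid group and with single arrays. The 12 mast cell markers all had a positive change, with a median of 0.70; their mean log2 level was 4.01, 2.17, 2.66 and 2.90 on the pH 6.7 arrays, against 2.31, 1.99, 2.22 and 2.53 on the pH 7.7 arrays. The groups overlapped, and WT pH 6.7 replicate 1 was high: the mast cell protease gene Cpa3 had 6.35 there, against 2.44, 3.79 and 3.71 on the other acid arrays and 3.74, 2.20, 3.69 and 4.35 on the alkaline arrays. By limma 1 of the 12 passed, Tph1, an enzyme of serotonin synthesis (0.97, adjusted p = 0.0491, in 1 of the 8 fits), and without that array 0 passed and the median was 0.37. Without WT pH 6.7 replicate 2, the lowest acid array, 5 passed and the median was 0.94. WT pH 6.7 replicate 1 was the highest array of its group for Pdk4, Angptl4, Bmp2, Enpp5, Epb41l3 and Fcgr4, and of these Bmp2 and Enpp5 did not pass without replicate 1 (adjusted p = 0.0643 and 0.0741).

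The mean of 11 B cell markers was 3.14, 3.59, 3.01 and 2.75, against 2.75, 2.94, 2.64 and 2.68, with a median change of 0.31. Cd79b (1.27) and Tnfrsf13c (1.06), which encode a chain of the B cell receptor complex and the BAFF receptor, rose, in 2 and 4 of the 8 fits, while Cd22 (-0.23) and Pax5 (-0.02) did not pass. No B cell marker passed without WT pH 6.7 replicate 1 or 2 or WT pH 7.7 replicate 3, and 3 passed without WT pH 6.7 replicate 4. The mean of 12 large peritoneal macrophage markers was 6.54, 6.45, 6.44 and 6.15, against 6.07, 5.89, 6.03 and 6.18, and Selp was the 1 marker of these that rose. The part of these cells in any of the results was not tested.

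In the cells lacking Ogr1, 670 genes were higher (3.21%) and 368 lower (1.77%) at pH 6.7, which makes 1038 genes, against 669 in wild type; the difference between these counts was not tested. Of the genes higher in wild type 181 were also higher in KO, which is 39.8% of the wild-type and 27% of the KO genes, and 71 were lower in both, 33.2% and 19.3%. A further 3 genes passed in opposite directions. The difference of the responses (WT minus KO) passed in 9 genes (0.0432%), of which 2 were positive, and 2361 genes had an unadjusted p under 0.05. A difference that missed the threshold does not show that the responses were alike.

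Of the named genes, 6 differed. Zc3h12c, an RNA-binding protein of the regnase family that restrains inflammatory transcripts in macrophages, had 5.01, 5.09, 5.24 and 5.16 at pH 6.7 in wild type, against 5.74, 5.77, 5.79 and 5.91 at pH 7.7 (-0.68 ± 0.09, adjusted p = 0.00032). In KO the change was 0.06, and the difference was -0.74 ± 0.12 (adjusted p = 0.0427). Htra4, a serine protease, changed by 0.57 in wild type and -0.31 in KO, and Loxl3, a lysyl oxidase, by 0.42 (in 7 of the 8 fits) and -0.31, with differences of 0.89 and 0.73. Zfp595 changed by -0.71 in wild type (in 2 of the 8 fits) and 0.75 in KO, with a difference of -1.46, and Dleu2, a long non-coding RNA measured by 1 probe set, by -0.87 (adjusted p = 0.0834) and 1.68, with a difference of -2.55 ± 0.37 (adjusted p = 0.0176). Trdn, a muscle protein of calcium release, had levels below the array medians and a difference of -0.82. Of these 6, Zc3h12c alone had all 8 wild-type arrays above the array medians.

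The genes with the largest wild-type changes were chosen by those changes, so their values in KO are given beside them as a description. Arg1 changed by 4.02 in wild type and 2.17 in KO, a difference of 1.85 (unadjusted p = 0.00267, adjusted p = 0.194). Selp changed by 2.55 and 0.83 (adjusted p of the difference = 0.121), Ear2 by 2.04 and -0.17 (0.117), Thbs1 by 1.26 and 0.21 (0.132) and Pdk4 by 3.18 and 1.57 (0.306). Car6 changed by 1.44 in wild type and 1.89 in KO. The sterol enzymes fell in both genotypes, 4 and 6 in wild type against 5 and 8 in KO for the 2 lists, with a difference in 0 of the 18 by limma and in 3 at an unadjusted p under 0.05. The endoplasmic reticulum list had medians of 0.38 in wild type and 0.39 in KO, and fatty acid oxidation 0.31 and 0.30. The medians of alternative activation were 0.45 in wild type and -0.05 in KO, and those of complement 0.37 and -0.22. Of these lists 9 of 17 and 8 of 16 genes had an unadjusted p under 0.05 for the difference (limma), against 11.3% of all genes, and 0 passed after adjustment. No rule picked these lists, and matrix proteases had 10 of 22 and macrophage transcription factors 7 of 23 at that p. The wild-type median of complement was 0.16 without WT pH 6.7 replicate 1 and 0.18 without WT pH 7.7 replicate 2. For alternative activation these medians were 0.36 and 0.41. The mast cell markers had medians of 0.70 in wild type and -0.13 in KO, with 8 of 12 at an unadjusted p under 0.05, and their part in these differences was not tested.

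**Figure D5:**
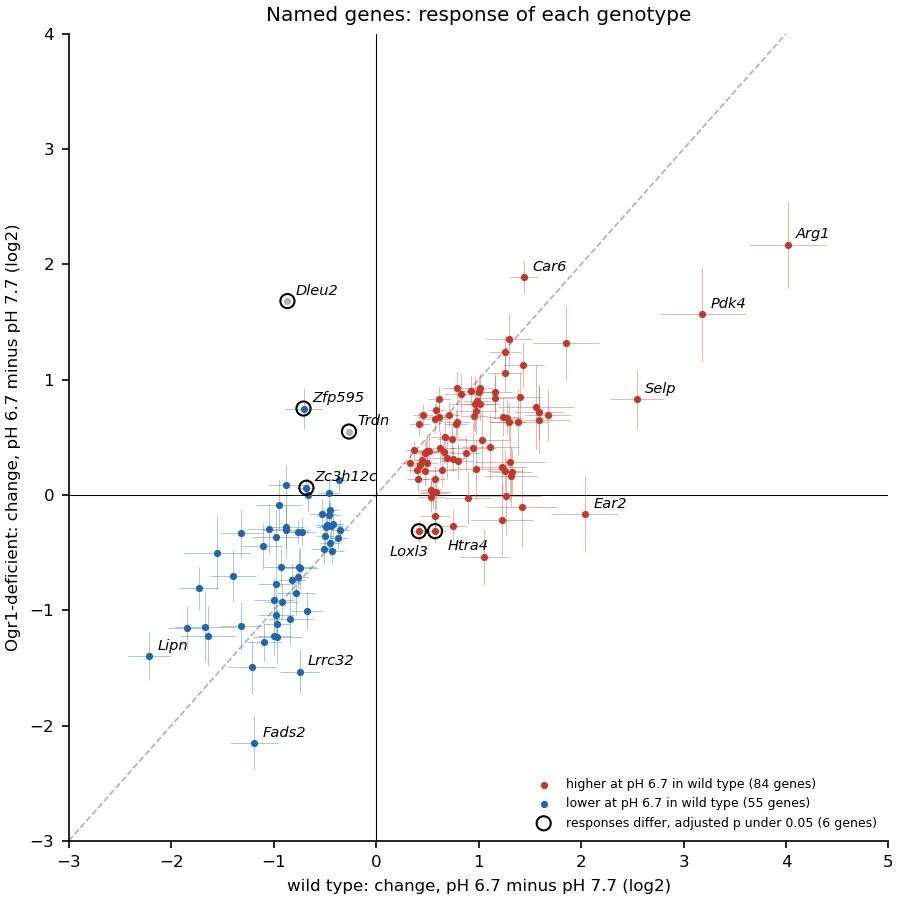
Response of the 139 named genes that passed in wild type and of 2 more whose responses differed, in wild type (horizontal axis) and in Ogr1-deficient cells (vertical axis), as pH 6.7 minus pH 7.7 in log2 with SEs (bars). Red genes rose and blue genes fell in wild type, the dashed line marks equal responses, and circles mark the 6 genes with an adjusted p under 0.05 for the difference; Arg1 lies at 4.02 and 2.17.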

How the data were processed

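Arrays of RNA from macrophages (6 ug per sample) after 24 h were background-corrected, normalized and summarised by the authors using RMA (R 2.15.2; per the submitters' processing notes), and the deposited values are linear intensities per probe set (0.88 to 5510). They were taken to log2 without a floor or pseudocount. Of 241576 probe sets, the platform annotation names 1 gene for 213361, more than 1 for 5107 and none for 23108; 2354 of 20893 symbols were updated through RefSeq (GRCm38.p6), and gene values are means over all probe sets. The 4 groups of 4 arrays were fitted together over 20848 genes with limma 3.58.1 in R 4.3.3 (lmFit, eBayes, no filter), with 3 comparisons (pH 6.7 minus pH 7.7 in WT, in KO, and WT minus KO response) and Benjamini-Hochberg adjustment over all genes at 0.05; the script was tested on simulated data. Named genes were the 20 largest changes each way (4 or more probe sets, no overlap), the 3 largest each way with 1 to 3 probe sets, the 10 brightest each way, up to 4 passing members and preset members of 40 pathway lists, markers in 13 lists, and the 10 smallest p for the genotype difference, without predicted genes. The genes, lists and rule were chosen with earlier results of these data known. Alternatives were the brightest probe set or the median per gene, filters on level and probe set number, centring, quantile normalization, an intensity trend, array weights, wild-type arrays alone, a replicate block and leaving out each array.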

Additional observations from a re-analysis of the deposited data

Results flagged for a closer look

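Among the named genes, 30 log2 levels stood far from the other 3 arrays of their group, by Dixon's criterion on the gap over the group's range, among 578 sets of 4 arrays. Chance flags about 1 in 20 such sets, or 28.9 of them, and the total is near that number. The total does not tell how the flags spread over the arrays, and part of the genes were chosen for groups without overlap. In WT pH 6.7 replicate 1 these were C3 at 8.84, C4b at 8.74, Ccl2 at 3.81, Enpp5 at 6.34, Esyt1 at 7.15, Folr2 at 3.10, Gata6 at 5.98, Mki67 at 3.03, Nfkbia at 6.08 and Pcna at 7.65. In WT pH 6.7 replicate 3 these were Ferd3l at 1.92, Lamp1 at 8.84 and Zfp595 at 3.29. In WT pH 6.7 replicate 4 these were Fos at 2.66, Hipk2 at 7.89, Itga2b at 2.81 and Thbs1 at 9.13. In WT pH 7.7 replicate 1 this was Ccr2 at 2.49. In WT pH 7.7 replicate 2 these were Blk at 2.96, Cd8b1 at 2.78, Cxcr2 at 2.68, Edem1 at 5.98, Eomes at 2.05, Ldha at 7.09, Ly6g at 1.33, Neu1 at 4.02 and S100a9 at 2.25. In WT pH 7.7 replicate 3 this was Fasn at 5.01. In WT pH 7.7 replicate 4 these were Eif2s3y at 1.27 and Ferd3l at 1.13. Thus 10 of the 30 lay in WT pH 6.7 replicate 1 and 9 in WT pH 7.7 replicate 2.

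In 6 named genes the response to acid differed between genotypes by the test of the difference itself (limma, adjusted p under 0.05). The WT minus KO difference was -2.55 for Dleu2, 0.89 for Htra4, 0.73 for Loxl3, -0.82 for Trdn, -0.74 for Zc3h12c and -1.46 for Zfp595.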

How the results depend on the processing

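In wild type 669 genes passed (455 higher, 214 lower). On the brightest probe set 175 (113 and 62) passed, and on the median of the probe sets 315 (219 and 96). With the 8 wild-type arrays alone, which leave fewer samples to estimate the spread, 239 (161 and 78) passed. The cause of these changes in number was not tested. Leaving out 1 wild-type array gave 379 to 548 genes, 252 to 398 higher and 117 to 229 lower. Of these calls 52.5% were higher without WT pH 7.7 replicate 2 (253 of 482), and 55.6% after quantile normalization (395 of 710). The filters, centring, the intensity trend and array weights gave 571 to 870 genes. The 9 genes whose response differed between genotypes became 83 with the brightest probe set, 2 with the median, and 1 to 17 when 1 of the 16 arrays was left out. Whether the replicate numbers pair the samples is not given in the labels. Deviations from the group mean correlated at 0.0275, -0.0656, -0.124 and -0.0575 between same-numbered wild-type arrays. Between same-numbered KO arrays the values were 0.173, 0.0332, 0.0499 and -0.0171, and between differently numbered arrays -0.187 to 0.192. With 4 arrays a group, whose deviations cancel within the group, these values cannot decide whether samples were paired. With the replicate block 441 genes passed (302 higher, 139 lower) and 1 differed between genotypes. Of the 139 named genes that passed, 80 passed in all 8 fits without 1 wild-type array; 92 were lost with the brightest probe set, 63 with wild-type arrays alone and 32 with the block, and 0 reversed. Signal near the array median limits the dim genes: in 87 of the 669 the lower group lay below it on all 4 arrays.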
